A study of Mus musculus with 27 samples.

Results

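Cone photoreceptors carry daylight and colour vision, and 10 genes that serve them were followed through the mouse model of oxygen-induced retinopathy (OIR). The genes were Opn1sw, Opn1mw, Arr3, Gnat2, Pde6c, Pde6h, Cnga3, Cngb3, Gngt2 and Thrb, chosen by symbol as known cone genes. Earlier results of these data were known when they were chosen. All 10 were among the 40129 genes of the table and among the 27137 genes that were tested. In the OIR model, pups are kept in high oxygen, which prunes the growing retinal vessels, and their return to room air leaves the retina short of oxygen until new vessels sprout.

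Whole retinas of wild-type C57BL/6 pups (C57BL/6J in the study's methods) of both sexes were sequenced at postnatal day 14 (p14), when the OIR retina is ischemic, and at p17, when retinal neovascularization is established. Controls (nOIR) were of the same strain and genotype and stayed in room air throughout. The comparisons used 6 nOIR and 6 OIR mice at p14 and 6 nOIR and 8 OIR mice at p17, with 1 library per mouse from 1 retina or from both retinas pooled, and left out nOIR p14 mouse S4 as the study did. Each group came from fewer litters than mice, and the litter of a mouse is not known, so p-values measure the spread between mice and take them as independent. Reads counted on genes, as recovered from the values, numbered 17029536 to 33593428 per library. Their median over all 27 mice, nOIR p14 mouse S4 included, was 30024568, and the shallowest library was OIR p17 mouse S1. Values are normalized reads, that is read counts divided by a size factor for each mouse. Checked against the tissue label, markers of rods, bipolar cells, Müller glia and ganglion cells were present in every group, and the summed level of 8 lens genes ranged from 65.7 to 33819 normalized reads, the highest in OIR p17 mouse S2. In whole retina, fewer cones and less RNA per cone cannot be told apart.

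A cone opsin that absorbs a photon activates the cone transducin, which switches on a phosphodiesterase. The enzyme breaks down cyclic GMP, the cyclic-nucleotide-gated channel closes and the cone hyperpolarizes, until arrestin caps the opsin and ends the response. Mouse cones carry S opsin (Opn1sw), M opsin (Opn1mw) or both, S opsin dominating in the ventral and M opsin in the dorsal retina. The thyroid hormone receptor encoded by Thrb promotes M opsin and restrains S opsin, and both opsins change in level as the retina matures after birth.

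The start sites of the genes whose levels moved are shown first, because Arr3 and Opn1mw lie on the X chromosome and were the lowest relative to controls in OIR at p14, while Opn1sw and Gnat2 rose with age in nOIR mice. The windows are RefSeq sequence of the build GRCm38.p6, 250 bases before to 50 bases after each start, written 5′ to 3′ on the strand of the gene. Capitals mark TAATC or its reverse complement GATTA, the first 5 letters of TAATCC, a sequence bound by the photoreceptor factor CRX.
Arr3 (chrX:100605247-100605546, plus strand): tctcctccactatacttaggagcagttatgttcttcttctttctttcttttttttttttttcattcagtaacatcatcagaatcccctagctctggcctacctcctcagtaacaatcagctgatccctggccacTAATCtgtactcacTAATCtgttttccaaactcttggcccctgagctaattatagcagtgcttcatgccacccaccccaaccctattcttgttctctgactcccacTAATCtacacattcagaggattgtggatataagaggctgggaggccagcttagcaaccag
Opn1mw (chrX:74127216-74127515, plus strand): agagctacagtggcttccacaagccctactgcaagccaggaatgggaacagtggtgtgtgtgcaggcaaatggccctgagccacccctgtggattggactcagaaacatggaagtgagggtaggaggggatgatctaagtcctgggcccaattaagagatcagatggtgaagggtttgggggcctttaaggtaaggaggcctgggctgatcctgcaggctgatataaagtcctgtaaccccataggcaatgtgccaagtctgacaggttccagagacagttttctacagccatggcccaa
Opn1sw (chr6:29380464-29380763, minus strand): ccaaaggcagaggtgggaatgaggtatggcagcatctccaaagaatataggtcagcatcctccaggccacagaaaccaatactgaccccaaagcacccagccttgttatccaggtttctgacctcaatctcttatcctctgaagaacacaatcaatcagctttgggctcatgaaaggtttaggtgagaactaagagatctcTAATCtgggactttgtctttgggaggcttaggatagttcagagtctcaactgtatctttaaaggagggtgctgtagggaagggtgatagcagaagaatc
Gnat2 (chr3:108092816-108093115, plus strand): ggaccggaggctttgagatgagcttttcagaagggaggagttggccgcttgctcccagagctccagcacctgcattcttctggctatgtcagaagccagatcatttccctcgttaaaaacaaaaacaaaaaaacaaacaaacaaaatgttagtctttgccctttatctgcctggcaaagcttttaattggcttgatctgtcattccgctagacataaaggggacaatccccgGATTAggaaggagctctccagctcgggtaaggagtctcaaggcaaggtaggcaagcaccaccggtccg

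The window of Arr3 held TAATC 3 times, those of Opn1sw and Gnat2 held it 1 time each, and the window of Opn1mw did not hold these letters. Windows were at hand for 7 of the 10 genes, 9 windows in all, and not for Pde6c, Cngb3 and Gngt2. TAATCC, searched on both strands, was in 2 of the 9 windows (Gnat2 and 1 of the windows of Thrb) and in 7.06% of all 32851 windows. TAATC, which includes every TAATCC and was added after the windows had been read, was in 5 of the 9 and in 22.0% of all windows. These matches describe letters and not binding.

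Per kilobase of the transcript lengths used, the opsins were the most abundant of the 10 genes. In nOIR p17 mice, Opn1sw had a mean of 12807 ± 1615 normalized reads per kb (SD, n = 6), with the length taken from the longest principal transcript of GENCODE M21. Opn1mw followed at 9713 ± 1589 per kb, and the ranges of the opsins overlapped, 10348 to 14581 against 6626 to 11203 per kb. Gnat2 (3655 ± 336 per kb) and Arr3 (3060 ± 357 per kb) came next, overlapped each other and lay below every value of the opsins. Gngt2 at 2133, Pde6c at 1814 and Pde6h at 1379 per kb formed a middle group with overlapping ranges, and the range of Gngt2 just touched that of Arr3. Thrb (631 ± 48.3 per kb), Cngb3 (212 ± 19.1 per kb) and Cnga3 (124 ± 27.9 per kb) were lowest, each below every value of the gene before it. With the union of all exons as the length, Arr3 and Gngt2 changed places and the rest of the order stayed. The place of Pde6h rests on a transcript length of 5940 bases. Its exon union was longer still, 7846 bases, so the union does not show how a shorter transcript would place it. Before division by length, Pde6h had a mean of 8191 normalized reads in nOIR p17 mice. That was above Gnat2 (7508) and Arr3 (4159). In RefSeq, Opn1sw overlaps Calu, Opn1mw overlaps Gm6758, Gnat2 overlaps Gm12500, Cngb3 overlaps Gm11877 and Gngt2 overlaps Abi3, all of them genes of the table. Pde6c overlaps Gm32440 and Gm52398 and Thrb overlaps LOC115488350, which were not matched to the table by symbol. The study's methods give featureCounts with default parameters, under which a read that overlaps several genes is left uncounted.

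At p14, 1 of the 10 cone genes was lower in OIR than in nOIR mice and none was higher. Arr3, the cone arrestin, fell by 0.89 on the log2 scale, and 1 of 10 lower stood beside 2.91% of all genes tested, with a limma adjusted p under 0.05 as the threshold. No cone gene was higher in OIR p14 by limma, edgeR or DESeq2, and none at an unadjusted p under 0.05, beside 3.18% of all genes. At an unadjusted p under 0.05, 2 cone genes were lower, Arr3 and Opn1mw. The median change of the 10 genes was 0.04 on the log2 scale and that of all genes tested 0.02. At p17, 0 of the 10 genes passed between OIR and nOIR mice by limma, edgeR and DESeq2, with 1 (Thrb) lower at an unadjusted p under 0.05, beside 7.39% of all genes higher and 5.12% lower. The median of the 10 genes at p17 was -0.04 and that of all genes -0.02.

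With age, 2 cone genes rose in nOIR and 3 in OIR mice. From p14 to p17 in nOIR mice, all 10 estimates were above 0 with a median of 0.24 on the log2 scale, beside -0.01 for all genes, and 2 passed the test, Opn1sw and Gnat2, beside 0.158% of all genes higher. None was lower by limma, edgeR or DESeq2, also at an unadjusted p under 0.05, beside 0.158% of all genes lower. In OIR mice, 9 of 10 estimates were above 0 with a median of 0.35, beside -0.04 for all genes, and 3 passed, Arr3, Opn1mw and Gnat2, beside 4.11% of all genes higher. At an unadjusted p under 0.05 these were 6, edgeR passed 3 and DESeq2 4, and no cone gene was lower by any of these, beside 1.81% of all genes lower. The difference between the OIR effect at p17 and that at p14 passed for 1 gene, Arr3, beside 1.43% of all genes higher and 0.147% lower, while the lower direction had 0 by all 3 tools and 1 (Thrb) at an unadjusted p under 0.05. No change of a cone gene reached a log2 fold change of 2 in either direction, which is the fold the study asked of differentially expressed genes.

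**Figure D1:**
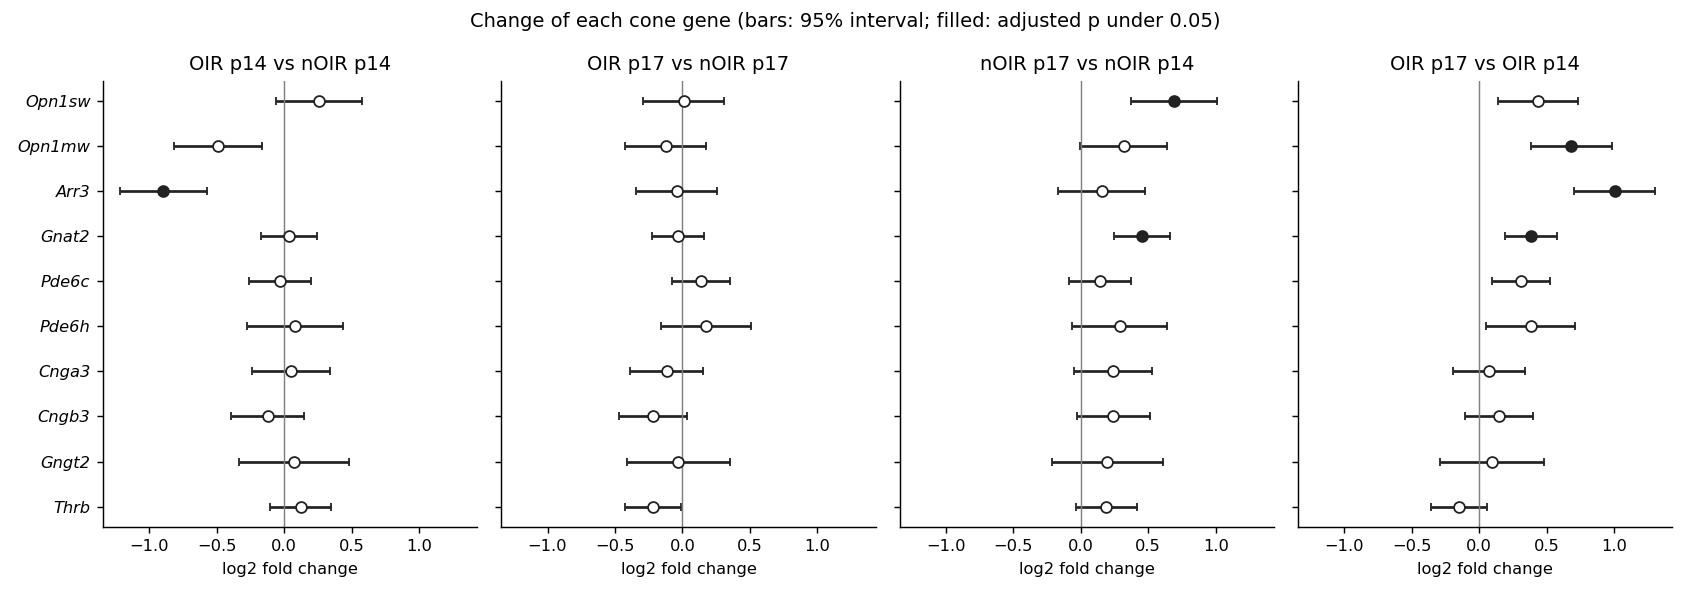
Log2 fold change of each cone gene (x axis) in 4 comparisons, with 95% intervals from limma; filled points passed an adjusted p under 0.05. Arr3 lies at -0.89 for OIR against nOIR at p14 and at 1.00 for OIR p17 against OIR p14, and all 10 points of the nOIR age comparison lie above 0.

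The M opsin and the S opsin did not move together in OIR at p14. Opn1mw had 7395, 10138, 10929, 9938, 8525 and 10150 normalized reads in nOIR p14 mice S1, S2, S3, S5, S6 and S7. In OIR p14 mice S1 to S6 it had 11388, 6234, 6474, 5638, 6230 and 5684. Here 5 of 6 OIR mice lay below every control, while mouse S1 lay above every control, so the groups overlapped. The difference was -0.49 on the log2 scale (SE 0.158, 95% interval -0.81 to -0.17) with a limma adjusted p of 0.0632, which missed the threshold. It passed without any 1 of nOIR p14 mouse S1, OIR p14 mouse S1, nOIR p17 mouse S1 and OIR p17 mouse S7, and without OIR p14 mouse S1 it was -0.64 (limma adjusted p = 0.00343).

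Opn1sw at p14 had 11704, 18109, 20077, 19637, 24837 and 22872 normalized reads in the nOIR mice, in the same order. The OIR mice S1 to S6 had 26692, 29931, 17126, 20041, 25370 and 20164, of which 3 lay above every control and none below. The difference of 0.26 (SE 0.155, 95% interval -0.06 to 0.58) had a limma adjusted p of 0.430.

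At p17 the opsins of OIR and nOIR mice overlapped widely. Opn1mw ranged from 8130 to 13746 around a median of 12450 normalized reads in nOIR mice and from 8364 to 15012 around 10494 in OIR mice, a difference of -0.12 (95% interval -0.43 to 0.18, limma adjusted p = 0.693). Opn1sw ranged from 24939 to 35141 around 31248 in nOIR and from 24220 to 41030 around 29290 in OIR mice, a difference of 0.01 (95% interval -0.29 to 0.31, limma adjusted p = 0.985). The S opsin was the member that rose most with age in nOIR mice, by 0.69 on the log2 scale (SE 0.155, limma adjusted p = 0.0448), and every nOIR p17 mouse was above every nOIR p14 mouse, 24939 against 24837 at the closest. This call was lost without any 1 of 15 mice, with an adjusted p of 0.0502 to 0.116 and an increase of 0.55 or more, and with all genes above 0, quantile normalization, the lens covariate and the replicate block (adjusted p = 0.0516 to 0.0808). In OIR mice its age difference was 0.43 (SE 0.145), with 4 of 8 OIR p17 mice above every OIR p14 mouse and a limma adjusted p of 0.0772. Opn1mw rose with age in OIR mice by 0.68 (SE 0.147, limma adjusted p = 0.00339), with 3 of 8 OIR p17 mice above every OIR p14 mouse, and in nOIR mice the difference was 0.32 (SE 0.158, limma adjusted p = 0.689).

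**Figure D2:**
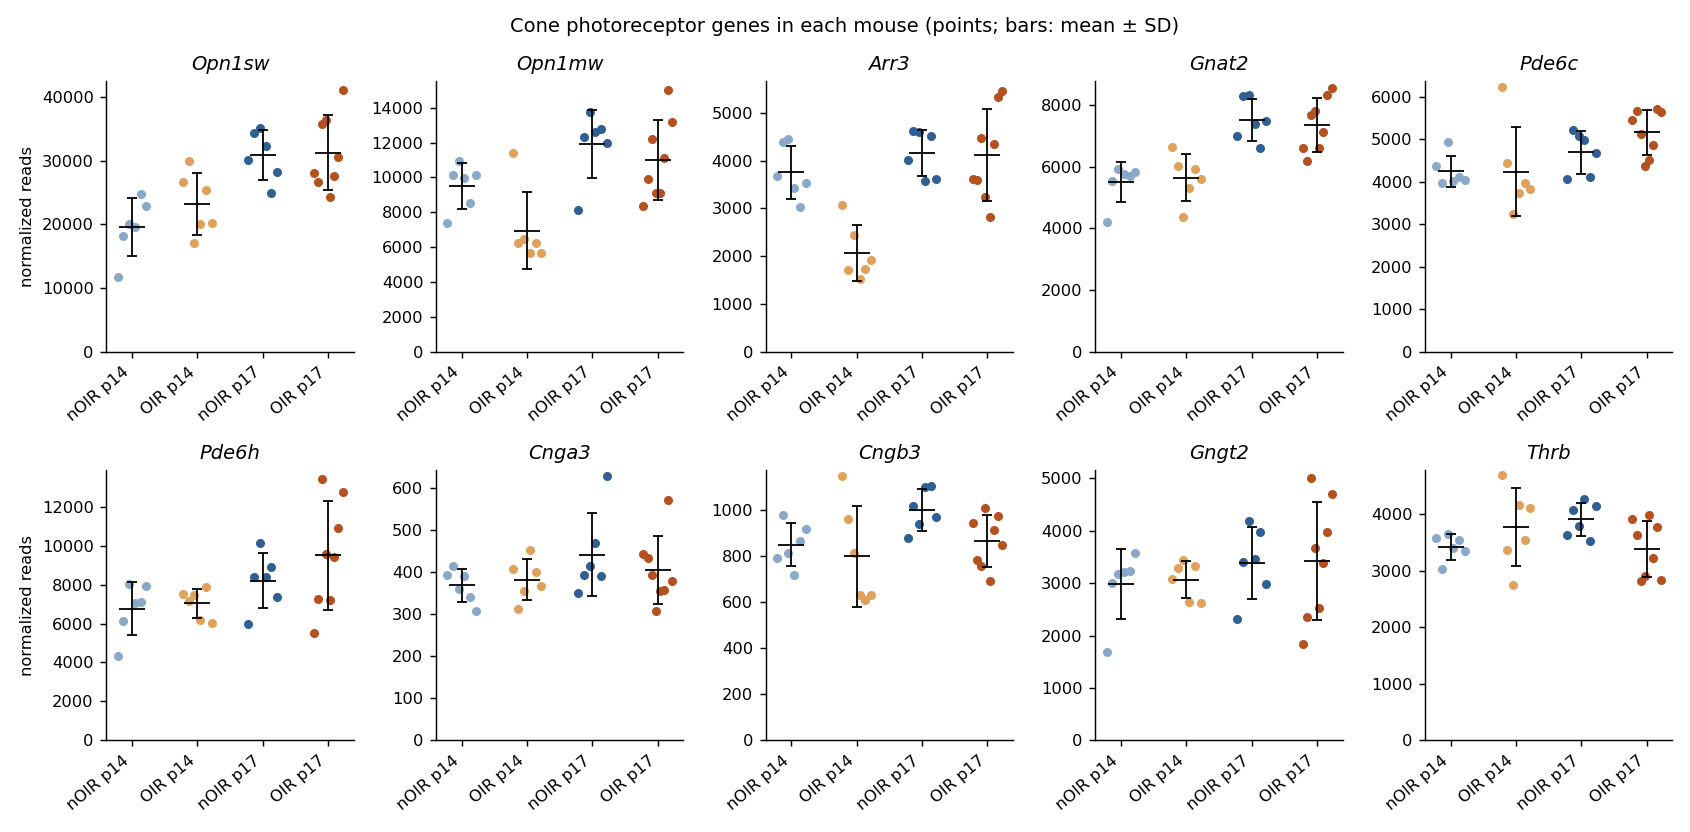
Normalized reads (y axis, from 0) of each cone gene in each mouse by group, with the mean and SD as bars. In Arr3 and Opn1mw, 5 of 6 OIR p14 mice lie below all nOIR p14 mice, and OIR p14 mouse S1 lies apart at 3072 and 11388.

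The balance of the opsins was read within each mouse as Opn1mw reads per 100 Opn1sw reads, a ratio that no size factor can change. In nOIR p14 mice it was 63.2, 56.0, 54.4, 50.6, 34.3 and 44.4, with a mean of 50.5 ± 10.1 (SD, n = 6). In OIR p14 mice S1 to S6 it was 42.7, 20.8, 37.8, 28.1, 24.6 and 28.2, with a mean of 30.4 ± 8.26 (SD, n = 6). Of the OIR mice, 4 lay below every control, and S1 and S3 lay within the range of the controls. The ratio was lower in OIR by 0.75 on the log2 scale, that is a difference of -0.75 (two-sided exact permutation test, p = 0.00866, adjusted over 4 comparisons 0.0346). Leaving out 1 mouse moved the difference between -0.86 and -0.65, and the adjusted p rose to between 0.0519 and 0.0693 without any 1 of nOIR p14 S1, S2, S3, S5 and S7 and OIR p14 S2, S4, S5 and S6.

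At p17 the ratio was 39.1 ± 7.94 (SD, n = 6) in nOIR and 35.6 ± 7.26 (SD, n = 8) in OIR mice, a log2 difference of -0.13 (exact permutation test, p = 0.424, adjusted 0.424). From p14 to p17 it was lower by 0.37 in nOIR mice, a difference of -0.37 (exact permutation test, p = 0.0693, adjusted 0.139; 0.0260 without nOIR p14 mouse S6). In OIR mice the difference with age was 0.25 (exact permutation test, p = 0.190, adjusted 0.253). The OIR effect on the ratio at p17 minus that at p14 was 0.62 on the log2 scale, a value with no test.

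**Figure D3:**
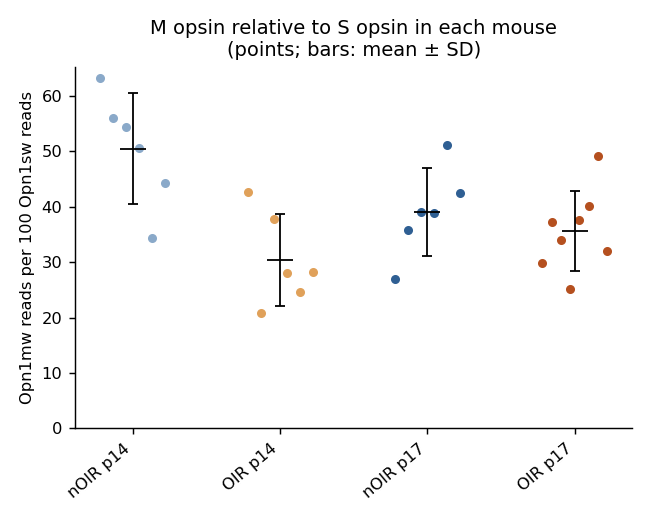
Opn1mw reads per 100 Opn1sw reads (y axis, from 0) in each mouse by group, with the mean and SD as bars. The nOIR p14 mice lie between 34.3 and 63.2 and the OIR p14 mice between 20.8 and 42.7, while the groups at p17 overlap widely.

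Cone transducin passes the signal from the opsins to the phosphodiesterase, and its alpha subunit Gnat2 rose with age in both conditions by limma, with calls that depended on the setting. Gnat2 had 4213, 5536, 5932, 5767, 5703 and 5816 normalized reads in nOIR p14 mice and 6990, 8275, 8326, 7374, 6591 and 7492 in nOIR p17 mice S1 to S6. The groups did not overlap, and the increase was 0.45 on the log2 scale (SE 0.102, limma adjusted p = 0.0404), a call lost without any 1 of 13 mice, with an adjusted p of 0.0515 to 0.116. It was also lost with all genes above 0, quantile normalization, the lens covariate, the Xist covariate and the replicate block (adjusted p = 0.0575 to 0.0911). OIR p14 mice ranged from 4364 to 6648 around 5746 and OIR p17 mice from 6171 to 8554 around 7390, with 5 of 8 OIR p17 mice above every OIR p14 mouse and an increase of 0.39 (SE 0.0950, limma adjusted p = 0.0109). With the replicate block this was 0.33 and did not pass (limma adjusted p = 0.0800). Between OIR and nOIR mice Gnat2 differed by 0.03 at p14 (95% interval -0.17 to 0.24) and by -0.03 at p17 (95% interval -0.23 to 0.16), the narrowest intervals of the 10 genes.

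The gamma subunit Gngt2 varied most among the members within OIR p17 mice, from 1846 to 4995 normalized reads around 3519, a coefficient of variation of 32.9%. Its medians were 3190 in nOIR p14, 3184 in OIR p14 and 3423 in nOIR p17 mice, all groups overlapped, and the lowest limma adjusted p of its comparisons was 0.849.

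The phosphodiesterase subunits passed no comparison by limma on the values as normalized by the authors. Pde6c passed with age in OIR mice after quantile normalization (adjusted p = 0.0409), and both subunits passed at p17 once mice were centred on their rod genes. Pde6c, the catalytic subunit, ranged from 3962 to 4948 normalized reads around 4081 in nOIR p14 and from 3254 to 6223 around 3895 in OIR p14 mice, where mouse S1 was highest and the other 5 were at most 4447. The difference was -0.03 (95% interval -0.26 to 0.20). At p17 its medians were 4828 in nOIR and 5286 in OIR mice, and the increase with age in OIR mice, 0.31 (SE 0.105), had a limma adjusted p of 0.0830, or 0.43 and 0.00214 without OIR p14 mouse S1.

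Pde6h, the small inhibitory subunit, had medians of 7085 and 7310 normalized reads at p14 and of 8386 and 9475 at p17, each time in nOIR and then in OIR mice, and its OIR p17 values spread from 5519 in mouse S1 to 13439 in mouse S3. It differed by 0.08 between OIR and nOIR at p14 (95% interval -0.27 to 0.44) and by 0.17 at p17 (95% interval -0.16 to 0.51). Its age difference in OIR mice, 0.38 (SE 0.162), had a limma adjusted p of 0.194, and of 0.0463 without OIR p17 mouse S1, the shallowest library.

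The channel genes were the least abundant. Cnga3, which encodes the main channel subunit, ranged over all 26 mice from 307 to 628 normalized reads, and its group means lay between 369 ± 39.3 (SD, n = 6) in nOIR p14 and 441 ± 99.0 (SD, n = 6) in nOIR p17 mice. Cngb3, the modulatory subunit, had 790, 979, 813, 719, 866 and 917 in nOIR p14 mice and 1145, 959, 813, 632, 609 and 631 in OIR p14 mice. Here 3 OIR mice lay below every control and mouse S1 above every control, and the difference was -0.12 (95% interval -0.39 to 0.15). At p17, Cngb3 had a mean of 1000 ± 90.0 in nOIR (SD, n = 6) and 863 ± 112 in OIR mice (SD, n = 8), with 4 of 8 OIR mice below every control and a difference of -0.22 (SE 0.123, limma adjusted p = 0.306).

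Arr3, the arrestin that quenches activated cone opsins, was the member that fell in OIR at p14. The nOIR p14 mice S1, S2, S3, S5, S6 and S7 had 3683, 4378, 4456, 3432, 3034 and 3522 normalized reads. The OIR p14 mice S1 to S6 had 3072, 1705, 2434, 1522, 1724 and 1909. So 5 of 6 OIR mice lay below every control, and mouse S1, at 3072, lay just above the lowest control. The decrease was 0.89 on the log2 scale, a difference of -0.89 (SE 0.157, limma adjusted p = 0.000379), from a mean of 3751 ± 559 to 2061 ± 586 (SD, n = 6 each). Arr3 passed whichever mouse was left out, with differences from -1.02 to -0.82. With nOIR p14 mouse S4, at 2968, it was -0.85 (limma adjusted p = 0.000375).

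At p17, the Arr3 values of OIR mice lay on both sides of those of the controls. The nOIR p17 mice S1 to S6 had 4017, 4619, 4598, 3580, 4516 and 3622 normalized reads, and the 8 OIR p17 mice ranged from 2813 to 5465 around 3988, with 4 of the 8 within the range of the controls, 2 below and 2 above it. The difference was -0.04 (95% interval -0.34 to 0.26, limma adjusted p = 0.912), so a decrease of the size seen at p14 lies outside the interval. Within OIR mice Arr3 rose with age by 1.00 (SE 0.147, limma adjusted p = 3.80e-05), with 7 of 8 OIR p17 mice above every OIR p14 mouse, and within nOIR mice the difference was 0.15 (SE 0.157, limma adjusted p = 0.927). The OIR effect at p17 minus that at p14 was 0.85 (SE 0.216, limma adjusted p = 0.0354), and this call was lost without any 1 of 14 mice, with a limma adjusted p of 0.0509 to 0.0760 and a difference of 0.77 or more throughout. Those mice were nOIR p14 S1, S2 and S3, nOIR p17 S1, S4 and S6, OIR p14 S2, S4, S5 and S6, and OIR p17 S3, S6, S7 and S8. It was also lost with the replicate block (0.66, limma adjusted p = 0.129) and with all genes above 0 (limma adjusted p = 0.0600).

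Arr3 and Opn1mw lie on the X chromosome, and the pups were of both sexes. Xist, the RNA of the inactive X, was above 1000 normalized reads in 4 of 6 nOIR p14, 5 of 6 OIR p14, 2 of 6 nOIR p17 and 4 of 8 OIR p17 mice and below 100 in the rest. With log2 Xist as a covariate, chosen after seeing the data, Arr3 at p14 was -0.89 (limma adjusted p = 0.000630) and Opn1mw -0.48 (limma adjusted p = 0.0818).

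Thrb, the thyroid hormone receptor that sets the opsin identity of cones, had the opposite sign to most members with age in OIR mice. It ranged from 3034 to 3663 normalized reads around 3473 in nOIR p14 and from 2745 to 4695 around 3836 in OIR p14 mice. At p17 it ranged from 3535 to 4283 around 3935 in nOIR and from 2818 to 3994 around 3436 in OIR mice, and 4 of 8 OIR mice lay below every control. The differences of OIR from nOIR were 0.12 at p14 (95% interval -0.10 to 0.35) and -0.22 at p17 (95% interval -0.43 to -0.01, limma adjusted p = 0.194), and with mice centred on their rod genes the second was 0.00. That centring moved the median of all genes by 0.22 at p17, and relative to it Thrb was -0.19. The difference between these effects was -0.34 (SE 0.150), with an unadjusted limma p of 0.0317 and an adjusted p of 0.397. Thrb is also read in other retinal cells, and its counts are not specific to the cone isoform.

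Within groups, the cone genes did not vary as 1 block. After each group's mean was taken out, log2 values of 36 of the 45 pairs of members correlated above 0 over the 26 mice, with a median Pearson r of 0.32. Pde6h and Gngt2 were closest at r = 0.98, followed by Opn1sw and Gnat2 at 0.86 and by Opn1mw and Arr3 at 0.74, the pair that lay lowest in OIR at p14. Opn1sw and Arr3 had r = 0.13, and Thrb with Gngt2 had the lowest value at -0.50. All points share a library and its depth, so these values are descriptions and carry no test.

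**Figure D4:**
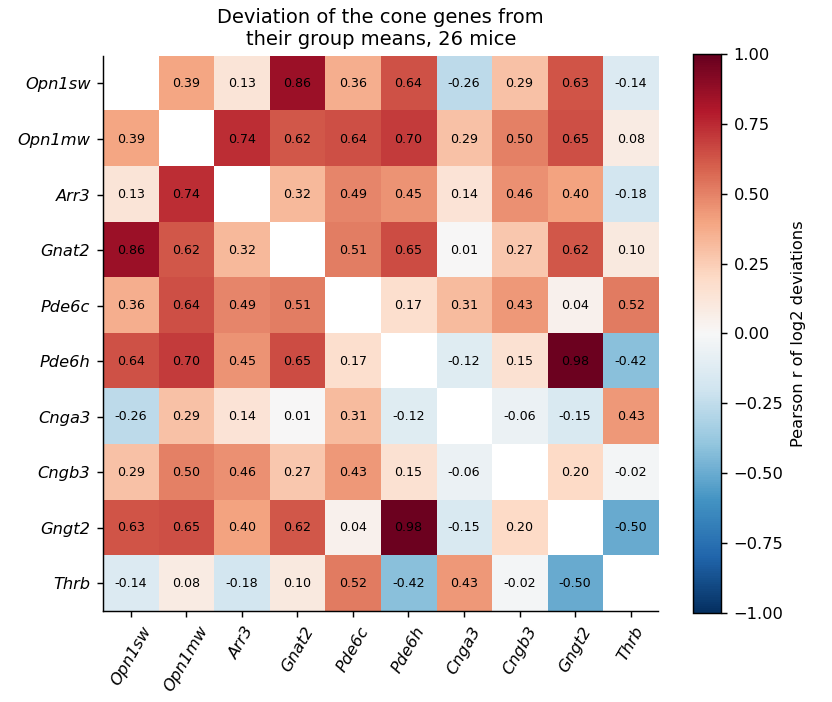
Pearson correlation of the log2 deviations of the cone genes from their group means over 26 mice; red is positive, blue negative. Pde6h with Gngt2 (0.98), Opn1sw with Gnat2 (0.86) and Opn1mw with Arr3 (0.74) are the closest pairs, and Thrb with Gngt2 (-0.50) is the lowest.

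Single mice were the highest or lowest of their group in up to 6 of the 10 cone genes. OIR p14 mouse S1 was the highest of its group in 6 of the 10 genes (Opn1mw, Arr3, Gnat2, Pde6c, Cngb3 and Thrb). Its summed level of 13 rod genes was also the highest of the OIR p14 group. Among nOIR p14 mice, S3 was the highest in 6 genes and S1 the lowest in 5, and among OIR p14 mice S3 was the lowest in 4. Among nOIR p17 mice, S1 was the lowest in 6 genes and S3 the highest in 5. Among OIR p17 mice, S7 and S8 were each the highest in 3 genes, and S1 and S5 each the lowest in 3.

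Among 7 further cone-enriched genes, 3 rose in OIR at p14 and none fell, beside 3.18% of all genes higher and 2.91% lower. Their median was 0.10, and whether they differed from the 10 cone genes was not tested. Gnb3, the transducin beta subunit that cones share with ON bipolar cells, rose by 0.51 on the log2 scale (SE 0.0915, limma adjusted p = 0.000451), from a mean of 18448 ± 691 to 26503 ± 3671 normalized reads (SD, n = 6 each). Kcne2, a potassium channel subunit, rose by 0.47 (limma adjusted p = 0.0156) and Ccdc136 by 0.28 (limma adjusted p = 0.0131), the last not when only the compared groups were fitted (adjusted p = 0.0698). At p17, Gnb3 rose by 0.44 (SE 0.0856, limma adjusted p = 0.000421) and Slc24a2, the cone sodium-calcium-potassium exchanger, fell by 0.65 (SE 0.136, limma adjusted p = 0.00104), while the other 5 did not pass, beside 7.39% of all genes higher and 5.12% lower, and the median was -0.07. With mice centred on their rod genes, Slc24a2 was -0.43 and did not pass (adjusted p = 0.0831).

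The 12 genes that rods and cones share for phototransduction had medians of -0.21 at p14 and -0.21 at p17, with 1 of 12 lower at each age, beside 2.91% of all genes at p14 and 5.12% at p17. At p14 it was Guca1b, which activates guanylate cyclase when calcium falls, by 0.46 (limma adjusted p = 0.0179), lost when mice were centred on their rod genes (adjusted p = 0.108) and without any 1 of nOIR p14 S5, nOIR p14 S7 and OIR p14 S4. At p17 it was its paralogue Guca1a, which fell by 0.79 (SE 0.197, limma adjusted p = 0.00543), from 988 ± 126 (SD, n = 6) to 578 ± 119 normalized reads (SD, n = 8). Guca1a also rose with age, by 1.24 in nOIR (SE 0.210, limma adjusted p = 0.00335) and by 0.91 in OIR mice (SE 0.197, limma adjusted p = 0.00356).

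The 13 rod genes had medians of -0.26 at p14 and -0.22 at p17, with 2 lower at p14 (Gnat1 and Pde6a), beside 2.91% of all genes, 3 lower at p17 (Pde6a, Pde6b and Sag), beside 5.12%, and none higher. Gnat1, the rod transducin, fell by 0.52 at p14 (SE 0.125, limma adjusted p = 0.00930), though not after quantile normalization (adjusted p = 0.0683), while Gnat2 of cones differed by 0.03. Pde6a at p14 (-0.32, limma adjusted p = 0.0185) did not pass with the replicate block or without nOIR p14 mouse S6 or S7. At p17, Pde6a (-0.28, limma adjusted p = 0.0126) did not pass at the same total or after quantile normalization, and Sag, the rod arrestin (-0.39, limma adjusted p = 0.0172), did not pass after quantile normalization or without nOIR p17 mouse S2. Pde6b (-0.24, limma adjusted p = 0.0245) did not pass at the same total, with every gene above 0 or without nOIR p17 mouse S2, S4 or S6. When each mouse was centred on its rod genes, the median of all genes moved by 0.25 at p14 and by 0.22 at p17, to 0.26 and 0.20. On that scale, which is set by the rod genes themselves, Pde6a, Pde6b and Sag did not pass, while Opn1sw (0.51, limma adjusted p = 0.00914) and Gnat2 (0.28, limma adjusted p = 0.0172) passed as higher in OIR at p14, and they stood 0.24 and 0.02 above the moved median. Arr3 was -0.65 (limma adjusted p = 0.00382), which is -0.91 relative to that median, and Opn1mw was -0.51 relative to it. At p17, Pde6c (0.36, limma adjusted p = 0.0146) and Pde6h (0.39, limma adjusted p = 0.0166) passed as higher, 0.16 and 0.20 above the median of all genes.

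Of 13 transcription factors of photoreceptors, 1 rose in OIR at p14 and none fell, beside 3.18% of all genes higher and 2.91% lower. Samd7, a transcriptional repressor of photoreceptors, rose by 0.68 at p14 (SE 0.151, limma adjusted p = 0.00436) and by 0.48 at p17 (SE 0.141, limma adjusted p = 0.0205), the second lost without nOIR p17 mouse S3 (adjusted p = 0.0532). Crx, the factor that binds TAATCC, had 28178 ± 1533 normalized reads in the controls and 26869 ± 1834 in OIR mice at p14 (SD, n = 6 each) and did not pass. At p17, 1 of the 13 rose, beside 7.39% of all genes, and none fell, beside 5.12%.

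Of 8 genes that handle thyroid hormone, 2 fell in OIR at p14, beside 2.91% of all genes, and 3 at p17, beside 5.12%. Dio2, the deiodinase that makes the active hormone, fell by 1.22 at p14 (SE 0.149, limma adjusted p = 1.77e-06), from 743 ± 38.5 to 326 ± 86.0 normalized reads (SD, n = 6 each), and by 0.72 at p17 (SE 0.139, limma adjusted p = 0.000378). Slco1c1, a thyroxine transporter of brain and retinal vessels, fell by 1.62 at p14 (SE 0.249, limma adjusted p = 6.47e-05) and by 1.28 at p17 (SE 0.233, limma adjusted p = 0.000182). Both passed at both ages in every alternative fit and whichever mouse was left out. Ncor1 at p17 (-0.61, limma adjusted p = 0.0422) did not pass in 9 of the alternatives, edgeR and DESeq2 among them, nor without any 1 of the nOIR p17 mice S1 to S6 and OIR p17 mice S6, S7 and S8.

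**Figure D5:**
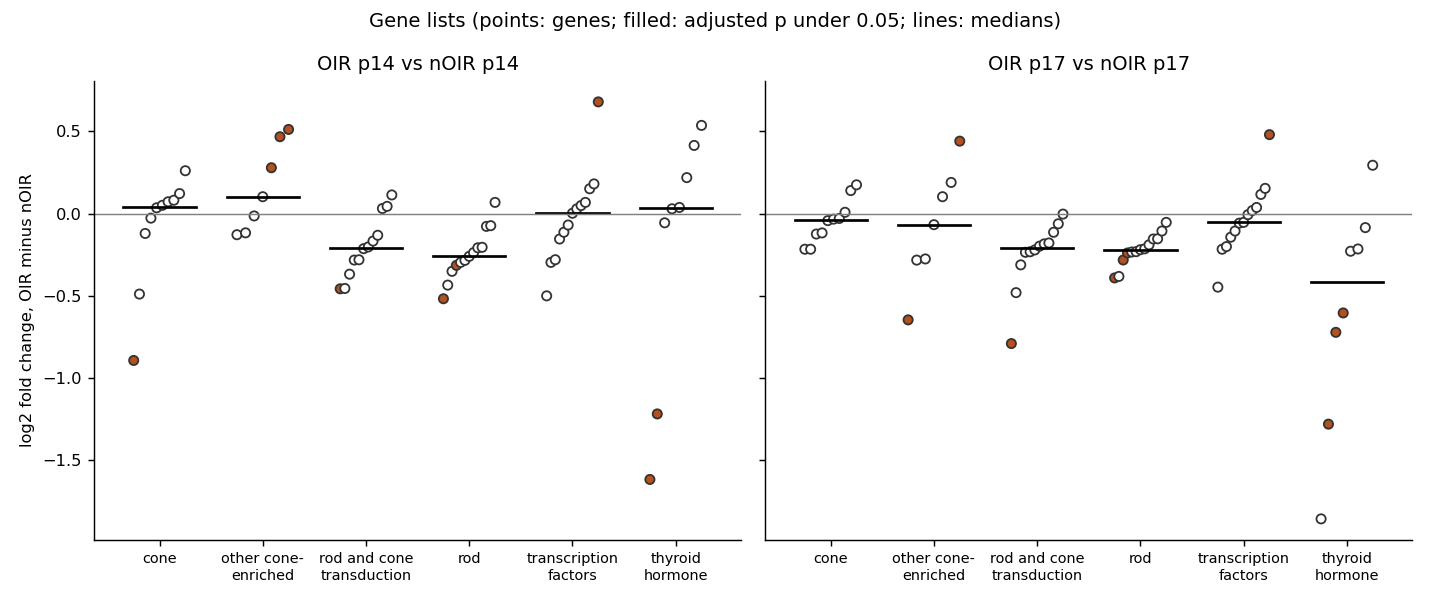
Log2 fold change of OIR against nOIR (y axis) at p14 and p17 for each gene of the cone list and of 5 further lists; filled points passed a limma adjusted p under 0.05 and lines are list medians. The rod median is -0.26 at p14 beside 0.04 for the cone genes, and Arr3 at -0.89 lies apart from the other cone genes.

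Levels of other cell types moved beside the cone genes, and their part in the results was not tested. The 4 Müller glia genes summed to 40055 to 53095 normalized reads in nOIR p14 and 30286 to 41040 in OIR p14 mice, to 41423 to 49363 in nOIR p17 and 26373 to 42618 in OIR p17 mice, and 3 of 4 fell at each age, beside 2.91% of all genes at p14 and 5.12% at p17. Of these calls, that of Glul at p17 did not pass at the same total, after quantile normalization or without nOIR p17 S2, S3 or S5 or OIR p17 S1, S2 or S5. The 5 bipolar genes summed to 36131 to 42353 and 30225 to 38842 at p14. At p17 they summed to 35657 to 38652 and 23924 to 30792. Of these 5 genes, 1 fell at p14, beside 2.91% of all genes, and 4 fell at p17, beside 5.12%. Grm6, the one that fell at p14, did not pass with the compared groups only, at the same total or without nOIR p14 S1 or S6 or OIR p14 S1 or S5. At p17, Grm6 did not pass with every gene above 0, with the replicate block, at the same total, after quantile normalization or without nOIR p17 S1, S2, S4 or S6 or OIR p17 S3, S4, S5 or S8, and Trpm1 did not pass after quantile normalization. Of 4 ganglion cell genes, 1 (Nefl) fell at each age, and of 7 genes of the retinal pigment epithelium, 1 (Rrh) fell at each age. Both counts stood beside the same shares of all genes, 2.91% at p14 and 5.12% at p17. Centring on rod genes ended the calls of Grm6 at both ages, of Rlbp1, Nefl and Rrh at p14 and of Glul and Trpm1 at p17. Both haemoglobin genes rose at p17, beside 7.39% of all genes higher, and neither passed at p14, beside 3.18%. None of the 8 lens genes passed at either age. With the lens level as a covariate, Arr3 at p14 was -0.90 (limma adjusted p = 0.000520) and Opn1mw passed at -0.52 (limma adjusted p = 0.0452).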

How the data were processed

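Whole retinas of 27 mice in 4 groups were sequenced, 1 library per mouse. Per the study's methods and its processing notes, the authors checked reads with FastQC 0.73, mapped them with STAR 2.7.8a, counted them on genes with featureCounts 2.0.1 and divided the counts by size factors of DESeq2 1.34. The deposited values are this signal of normalized reads, so the unit depends on the size factor of each mouse. The table also holds 8 columns of the authors' group means, log2 fold changes and adjusted p-values, which were not used. Every value was a whole multiple of 1 step per mouse (100% of values, tolerance 1e-06), from which read totals were recovered. No pair of mice of a group held the same library, as the chi-square between any pair was 9.39 or more per degree of freedom. PCR copies were not removed, so depth counts reads and not molecules.

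Limma 3.58.1 (lmFit, eBayes with trend) in R 4.3.3 was fitted to log2(normalized reads + 1) of 26 mice in 4 groups over 27137 genes with a mean of at least 1, with Benjamini-Hochberg adjustment over all of them. Fold changes are on this log2 scale. Read ratios were tested with exact permutation tests in scipy 1.17.1 under Python 3.11.15. Alternatives were edgeR 4.0.16 and DESeq2 1.42.0 on the recovered reads, a mean of at least 10, every gene above 0, a pseudocount of 0.1, inclusion of nOIR p14 mouse S4, the compared groups only, a block for the mouse number, the same total, quantile normalization, lens and Xist covariates (Xist added after seeing the data), centring on rod genes, an adjusted p under 0.01 and leaving out each mouse.

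The members and the gene lists were chosen with earlier results of these data known. All 10 members are described. Of each list, genes with an adjusted p under 0.05 could be named and the others were counted, and Crx and Xist are named besides. Likeness was read over genes with a mean of at least 50. Limma was tested on simulated data. Promoter windows are RefSeq GRCm38.p6 and transcript lengths GENCODE M21 on GRCm38, while the authors counted on a later annotation.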

Additional observations from a re-analysis of the deposited data

Results flagged for a closer look

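In 4 of 44 sets of values of 1 gene or ratio in 1 group, a single mouse lay farther from the rest than Dixon's 95% limit, and chance alone marks about 1 set in 20. Opn1mw was highest in OIR p14 mouse S1 at 11388 normalized reads, with a gap of 0.855 of the range of its group. Opn1mw was lowest in nOIR p17 mouse S1 at 8130, with a gap of 0.684 of the range. Gnat2 was lowest in nOIR p14 mouse S1 at 4213 (gap 0.769), and Gngt2 was lowest in the same mouse at 1678 (gap 0.697). The difference between the OIR effects at p17 and p14 was 0.85 on the log2 scale for Arr3 (limma adjusted p = 0.0354), and Arr3 was lower in OIR at p14 in 5 of 6 mice than in any control.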

How the results depend on the processing

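Arr3 at p14 and Arr3 and Opn1mw with age in OIR mice passed in every alternative fit and whichever mouse was left out. Calls with age in nOIR mice sat near the threshold. The count of cone genes that rose there was 2, Opn1sw and Gnat2. It became 0 with all genes above 0, quantile normalization, the lens covariate and an adjusted p under 0.01. With the Xist covariate it was 1 (Opn1sw), and with 1 mouse left out it was 0 to 2. Both calls were lost without any 1 of nOIR p14 S1, S2, S3 and S5, nOIR p17 S1, S2, S3, S4 and S6, OIR p14 S6 and OIR p17 S6, that of Opn1sw also without OIR p14 S4 or S5 or OIR p17 S2 or S7, and that of Gnat2 without nOIR p14 S6 or S7. The count of 1 for the difference between ages (Arr3) became 0 with all genes above 0 and an adjusted p under 0.01, and 0 to 1 with 1 mouse left out. At p14, the 1 lower gene became 2 with the lens covariate and 1 to 2 with 1 mouse left out, the second being Opn1mw, and 0 higher became 2 with centring on rod genes, as did 0 higher at p17. The log2 ratio of Opn1mw to Opn1sw ranged with 1 mouse left out from -0.86 to -0.65 for OIR against nOIR at p14 and from -0.48 to -0.27 for nOIR p17 against nOIR p14. In OIR mice with age, Opn1sw passed without nOIR p14 S1, OIR p14 S2 or OIR p17 S5 (adjusted p = 0.0328 to 0.0460) and by DESeq2 (0.0493), and Pde6c by quantile normalization (0.0409). The causes were not tested.

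Mice of the same number in different groups did not all deviate together, as 7 of 34 such pairs had a correlation of deviations above 0.1 and the range was -0.23 to 0.33, so the numbers were not taken to pair mice. Number 1 differed in part, since the S1 mice of nOIR p14, nOIR p17 and OIR p17 correlated at 0.25 to 0.33, the 3 highest values, while OIR p14 S1 had -0.12 to -0.02 with them. With the replicate block, the cone genes higher with age in nOIR mice were 0, and the difference between ages passed for 0 cone genes. Gnat2 with age in OIR mice was 0.33 (limma adjusted p = 0.0800), which left 2 cone genes there. Arr3 at p14 was -0.81 (limma adjusted p = 0.000663).

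No called value of a member changed sign. Among 543 values that passed neither with the setting reported nor with the alternative, 28 changed sign, the largest from a value of 0.22 in size. Of these, 11 came with centring on rod genes, which moves all genes alike (the median by 0.25 at p14 and 0.22 at p17). The lowest value of a cone gene in any of the 26 mice was 307 normalized reads (Cnga3), so no cone gene was near a count of 0.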

Other observations

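The genes whose profile over the 26 mice was most like the mean of the 10 cone genes were Aldoc (r = 0.90), Tex28 (0.89), Thrsp (0.88), Ctsb (0.87) and A930006I01Rik (0.87), as Pearson correlations of log2 values among genes whose mean reached 50 normalized reads. Aldoc, a glycolytic aldolase, had means of 13371 in nOIR p14, 12329 in OIR p14, 17667 in nOIR p17 and 16997 in OIR p17 mice. Opn1mw was most like Vtn, which encodes vitronectin (0.93), Tuba4a (0.90) and Tex28 (0.89), and Tex28 is the gene next to Opn1mw on the X chromosome in RefSeq. Vtn had means of 20484, 14816, 26630 and 24288 in the 4 groups in the same order, so it too was lowest in OIR p14 mice. Opn1sw was most like Vax2os (0.82), F630040K05Rik (0.81) and Aldoa (0.80), and Thrb was most like Wdr17 (0.82), Sphkap (0.81) and Ckap5 (0.81). These correlations include the differences between groups and carry no test.

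With age in OIR mice, the photoreceptor lists differed in their counts, beside 4.11% of all genes higher and 1.81% lower. Of the 12 genes that rods and cones share for phototransduction, 3 rose and none fell (Guca1a, Guca1b and Rgs9bp rose). Of the 13 rod genes, 3 rose and 1 fell, and of the 13 transcription factors, 3 fell and none rose, with Nr2e3 in both of these lists. Whether the lists differed from each other was not tested. Leaving out a mouse or changing a setting ended several of these calls, among them Rgs9bp without OIR p14 mouse S1 or with the replicate block, and Samd7 without OIR p14 mouse S1, S4, S5 or S6, with the compared groups only or with the replicate block. Guca1b rose by 0.64 (SE 0.113, limma adjusted p = 0.000407) and Gnat1 by 0.63 (SE 0.117, limma adjusted p = 0.000784), and both passed whichever mouse was left out and in every alternative fit. Nr2e3, which represses cone genes in rods, fell by 0.44 (SE 0.102, limma adjusted p = 0.00678) and likewise passed throughout.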
